A study of Homo sapiens with 6 samples.

Results

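The loci described here are long interspersed elements (LINEs) outside the L1 family, which belong to the L2, CR1, RTE-X, RTE-BovB, Penelope and Dong-R4 families of transposable elements (TEs). They were chosen by name, as loci of class LINE with a family other than L1 and an entry in at least 1 of the 6 locus tables. This gave 72300 of the 728165 TE loci listed. L2 supplied 61801 of them, CR1 7635, RTE-X 1905, RTE-BovB 835, Penelope 67 and Dong-R4 57. RNA on the strand of the element, here called the own strand, was listed at 34073 of these loci, and RNA on the opposite strand at 42029.

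The RNA came from SW480, an established human colon adenocarcinoma line. Control cells carried pLENTI CMV Clover, a lentiviral vector for a fluorescent protein (Clover, n = 3). The other cells carried pLENTI CMV Z18trunc, which drives a truncated form of ZC3H18 from the same CMV promoter (Z18trunc, n = 3). ZC3H18 is a nuclear RNA surveillance factor, and the truncated form copies the most frequent patient truncation. Lines were transduced in triplicate and selected with puromycin, so each library comes from a selected pool. The cells' own ZC3H18 gene was left in place, and the level of the transgene is not that of a patient allele. The comparison asks whether the truncated protein changes the level of TE RNA in colon cancer cells.

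L2, CR1 and RTE elements are retrotransposons that copied themselves through an RNA intermediate and a reverse transcriptase of their own. All are extinct in the human lineage, and their copies are short, old and heavily mutated. Because they settled before the radiation of placental mammals, many now sit inside the introns and untranslated regions of genes, where they are copied as part of the host transcript. MIR elements are short companions of L2 that share its 3′ end and used its enzymes, while L1 is the LINE family that is still active in humans. The nuclear exosome, brought to its targets by adaptor complexes such as NEXT and PAXT, degrades intronic, antisense and intergenic RNA of the kind in which such copies are found.

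The age of the elements shows in the copies themselves. On the own strand the median copy was 212 bp long and differed from its consensus by 30.8%, compared with 430 bp and 20.3% for L1 and 158 bp and 28.4% for MIR. Their median GC content was 43.2%, against 35.8% in L1. Uniquely mapped counts made up 75.3% of the estimated counts of the members and 67.6% of those of L1. Printed here are 5 stretches, each the last 300 bases of the annotated copy on the own strand, or the whole copy where it is shorter. They show the locus with the smallest p-value, the largest of the intronic copies in CTNNB1, the most abundant CR1_Mam copy outside exons, a copy antisense to a gene and a copy outside genes. Capitals mark AATAAA, the core hexamer of the polyadenylation signal. Coordinates are hg38.

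L2a in an ERP29 intron, chr12:112016302-112016486, plus strand: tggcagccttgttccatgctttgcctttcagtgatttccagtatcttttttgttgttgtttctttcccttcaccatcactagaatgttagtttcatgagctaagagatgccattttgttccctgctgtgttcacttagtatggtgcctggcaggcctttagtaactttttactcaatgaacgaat

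L2b in a CTNNB1 intron, chr3:41209232-41209531, plus strand: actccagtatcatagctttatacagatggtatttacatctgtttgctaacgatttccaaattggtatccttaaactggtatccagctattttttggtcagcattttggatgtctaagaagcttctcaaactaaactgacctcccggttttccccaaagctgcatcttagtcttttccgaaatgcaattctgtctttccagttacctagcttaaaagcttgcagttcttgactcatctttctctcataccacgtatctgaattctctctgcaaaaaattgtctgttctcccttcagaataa

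CR1_Mam in an ANKRD1 intron, chr10:90914273-90914572, minus strand: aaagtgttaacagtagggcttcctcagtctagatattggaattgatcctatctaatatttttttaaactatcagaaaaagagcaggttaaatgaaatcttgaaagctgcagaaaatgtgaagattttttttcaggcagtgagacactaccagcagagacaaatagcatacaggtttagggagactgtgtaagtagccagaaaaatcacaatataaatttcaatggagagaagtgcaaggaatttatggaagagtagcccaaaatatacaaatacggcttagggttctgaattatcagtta

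L2b antisense to LINC01291, chr2:74929013-74929312, minus strand: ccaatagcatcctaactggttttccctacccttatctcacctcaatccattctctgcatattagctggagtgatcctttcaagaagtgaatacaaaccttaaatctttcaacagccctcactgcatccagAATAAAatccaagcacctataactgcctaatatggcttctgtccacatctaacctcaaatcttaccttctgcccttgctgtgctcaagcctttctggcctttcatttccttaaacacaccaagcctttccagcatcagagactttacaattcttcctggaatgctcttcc

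L2 outside genes, chr13:22792711-22793010, minus strand: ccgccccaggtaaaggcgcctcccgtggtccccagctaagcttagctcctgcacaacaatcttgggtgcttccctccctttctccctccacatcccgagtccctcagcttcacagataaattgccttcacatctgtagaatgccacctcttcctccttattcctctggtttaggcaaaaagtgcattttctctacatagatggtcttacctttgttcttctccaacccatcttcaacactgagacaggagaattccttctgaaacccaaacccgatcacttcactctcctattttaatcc

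The hexamer AATAAA was searched on both strands in the last 300 bases of the 11448 members that are at least that long. It was found on the own strand of 17.8% and on the opposite strand of 29.8%. L1 copies of that length held it in 50.6% and 10.6%, respectively. CR1 differed from L2 in its order, with 21.8% on the own strand and 16.9% on the opposite strand against 17.2% and 30.8% in L2. A match is a description of the letters and was not taken as a functional signal.

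Libraries held 18226033 to 22463310 aligned fragments, and the members held 0.212% to 0.256% of them on the own strand. Levels are given in CPM, the estimated count per 1000000 aligned fragments, and where no count was seen up to 3 remain possible from counting error alone, which is 0.134 to 0.165 CPM. Own-strand RNA was listed at 9857 to 13747 member loci per library. Of the 34073 own-strand members, 2084 (6.12%) were listed in all 6 libraries and 18481 (54.2%) in only 1. The perturbed gene went from 57.2 ± 5.39 TPM (SD, n = 3) in Clover to 763 ± 31.2 TPM in Z18trunc (ZC3H18, limma log2 change 3.72, SE 0.09, adjusted p = 3.2e-05, 0.015% of genes called). Of 11 genes of colon epithelium and its Wnt targets, EPCAM, KRT8, KRT18, KRT19, CDX2, ASCL2 and AXIN2 were at 41.8 TPM or more in all 6 libraries, CDH1 was at 10.6 to 16.5 TPM and VIL1 at 10.1 to 14.8 TPM, while CDX1 was listed at 0 and CDH17 reached at most 0.0345 TPM. Of 7 markers of other cell types, PTPRC, PECAM1 and MLANA were listed at 0 and PMEL was highest at 1.42 to 3.60 TPM.

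Taken over all members, own-strand RNA was higher in each Z18trunc library than in any Clover library. It came to 2234, 2134 and 2116 CPM in Clover and to 2331, 2514 and 2559 CPM in Z18trunc. The means were 2161 ± 63.8 and 2468 ± 121 CPM (SD, n = 3), a gain of 14.2% or 0.19 on the log2 scale. An exact two-sided permutation test gave p = 0.1, the smallest value that 3 against 3 libraries allow, so no sum over the members could pass 0.05. RNA from the opposite strand behaved alike, with 2360, 2239 and 2134 CPM against 2434, 2599 and 2721 CPM (log2 difference 0.20, exact permutation p = 0.1). The log2 ratio of own to opposite strand differed by -0.01 between the groups, with overlapping libraries (exact permutation p = 0.7). In bulk RNA, more cells with such RNA and more of it per cell cannot be told apart.

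L2 carried most of the RNA. Its own-strand sum was 1868, 1829 and 1769 CPM in Clover and 1949, 2126 and 2145 CPM in Z18trunc, a log2 difference of 0.19 without overlap (exact permutation p = 0.1). CR1 gave 239, 205 and 225 CPM in Clover and 251, 258 and 288 CPM in Z18trunc, a log2 difference of 0.25 without overlap (exact permutation p = 0.1). RTE-X and RTE-BovB together gave 125, 98.0 and 119 CPM against 128, 127 and 124 CPM. Here the groups overlapped, with Clover replicate 2 alone well below the other 5 libraries (log2 difference 0.16, exact permutation p = 0.2, and 0.05 without that library). Penelope and Dong-R4 stayed under 2 CPM in every library, and their groups overlapped.

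**Figure D1:**
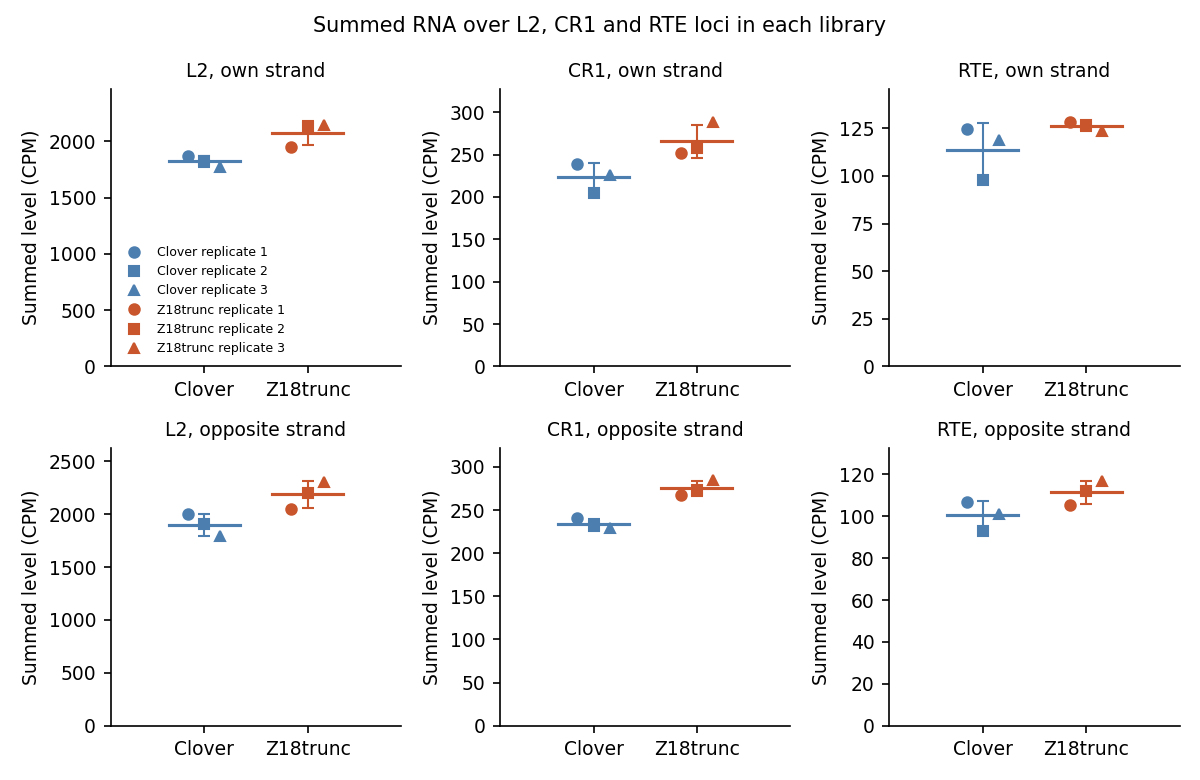
Summed level of L2, CR1 and RTE loci (CPM, y axis) in each library on the own strand (top) and the opposite strand (bottom). Points are libraries, bars the mean and SD of 3. L2 and CR1 libraries of Z18trunc lie above all Clover libraries on both strands, and RTE libraries overlap.

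The gain was set beside that of other repeats. On the own strand, L1 was 0.25 higher in Z18trunc on the log2 scale, MIR 0.11 and all TE loci of 4 classes (DNA, LINE, LTR and SINE) 0.17. The TE counts of the own and opposite strands were then used as library size in place of aligned fragments. The log2 difference was 0.01 for the members together, 0.01 for L2, 0.07 for CR1 and -0.02 for RTE. In all 4 the libraries overlapped (exact permutation p = 0.6, p = 0.8, p = 0.4 and p = 0.8, respectively). The log2 ratio of the members to L1 averaged -0.76 ± 0.08 over Clover and -0.83 ± 0.15 over Z18trunc libraries (SD, n = 3), which overlapped (exact permutation p = 0.6). That to MIR averaged -0.32 ± 0.02 in Clover and -0.24 ± 0.03 in Z18trunc without overlap, a difference of 0.08 (exact permutation p = 0.1). Without loci overlapping exons that difference was 0.032 and the libraries overlapped (exact permutation p = 0.3).

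The members were next grouped by their position in genes. Loci overlapping an exon on the transcribed strand made up 10.6% of the own-strand members and 54.2% of their counts, and 3′ UTRs alone held 39.0% of the counts in 1238 loci. Intronic loci made up 67.0% of the members and 34.7% of the counts. Loci antisense to a gene held 5.16% of the counts and loci outside genes 5.92%. MIR had a larger exonic share of its counts (64.9%) and L1 a smaller one (30.4%).

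Intronic copies and copies outside genes had larger differences between the groups than exonic copies, which was tested for introns alone, as a ratio. Intronic members summed to 778, 681 and 665 CPM in Clover and 815, 908 and 972 CPM in Z18trunc, 26.9% more and without overlap (log2 difference 0.34, exact permutation p = 0.1). Members outside genes gave 132, 111 and 116 CPM against 147, 156 and 160 CPM (log2 difference 0.37, exact permutation p = 0.1). Exonic members gave 1210, 1230 and 1226 CPM against 1252, 1318 and 1293 CPM, a gain of 5.36% that was small but without overlap (log2 difference 0.08, exact permutation p = 0.1). Antisense members lay between, at 0.20 on the log2 scale (exact permutation p = 0.1, no overlap). With TE counts as library size, tried after these sums were seen, the log2 difference was 0.17 for intronic members, 0.19 for those outside genes, 0.017 for antisense ones with overlap and -0.10 for exonic ones, so that the direction in exons turned.

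The kinds of exon differed too. Copies in 3′ UTRs gave nearly equal sums, with a log2 difference of 0.03 and overlapping libraries (exact permutation p = 0.4). Copies overlapping coding sequence differed by 0.11, also with overlap. Copies in 5′ UTRs were 0.31 higher and copies in exons of noncoding transcripts 0.21 higher, each without overlap but at the same limit of the exact permutation test.

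**Figure D2:**
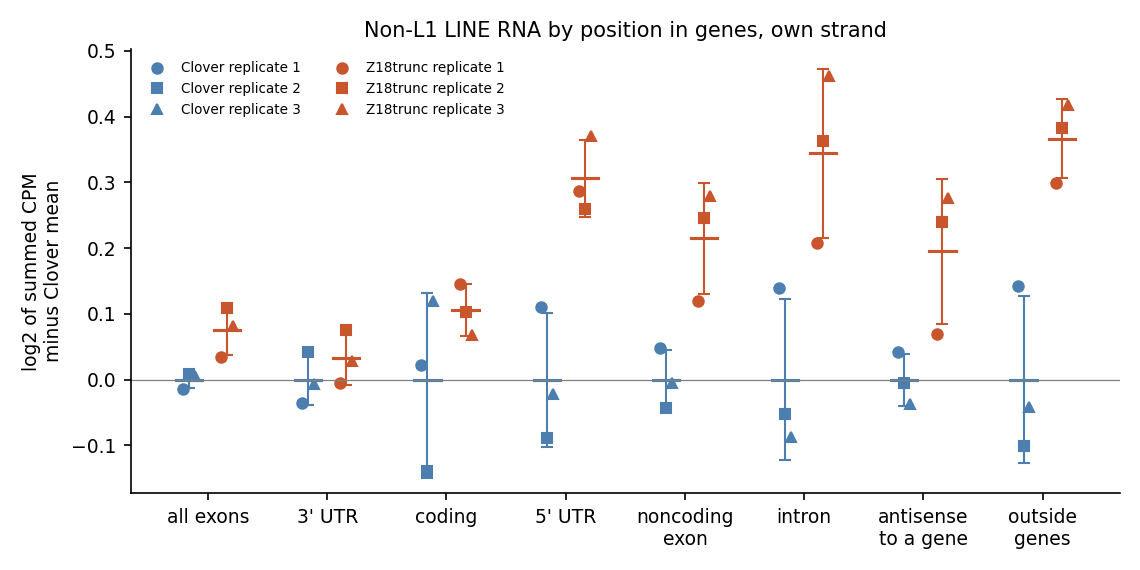
Own-strand sums of the members by position in genes, as log2 CPM minus the Clover mean of that position (y axis). Points are libraries, bars the mean and SD of 3. Introns, 5′ UTRs and loci outside genes stand highest in Z18trunc, and 3′ UTRs stay near 0. With TE counts as library size the exonic difference is -0.10.

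To put intronic and exonic copies on one scale, their ratio was taken within each library, a measure added after the sums had been seen. The log2 ratio was -0.64, -0.85 and -0.88 in Clover and -0.62, -0.54 and -0.41 in Z18trunc. The groups did not overlap, although Clover replicate 1 and Z18trunc replicate 1 were only narrowly apart (difference of means 0.27, exact permutation p = 0.1). When the 20 loci of highest level were left out, the difference was 0.24 and the groups overlapped (exact permutation p = 0.2). Over all TE loci it was 0.18 with overlap (exact permutation p = 0.2). L2 alone gave a difference of 0.29 without overlap. CR1 gave 0.13 and RTE 0.28, both with overlap. In MIR the difference was 0.32 without overlap, and in L1 it was 0.09 with overlap. The difference between members and L1 was tested as well and came to 0.18 (exact permutation p = 0.1, no overlap), and that between members and MIR came to -0.05 (exact permutation p = 0.1, no overlap). Against L1, Clover replicate 1 (-1.19) and Z18trunc replicate 1 (-1.17) were again narrowly apart. Intronic members over intronic L1 differed by 0.06 with overlap (exact permutation p = 0.6), and exonic members over exonic L1 by -0.12 without overlap (exact permutation p = 0.1). The exonic log2 ratio was 0.067, 0.081 and 0.141 in Clover and 0.049, 0.062 and -0.177 in Z18trunc. The groups were thus only narrowly apart, and Z18trunc replicate 3 carried most of that difference. Scaling of the libraries does not enter these ratios.

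**Figure D3:**
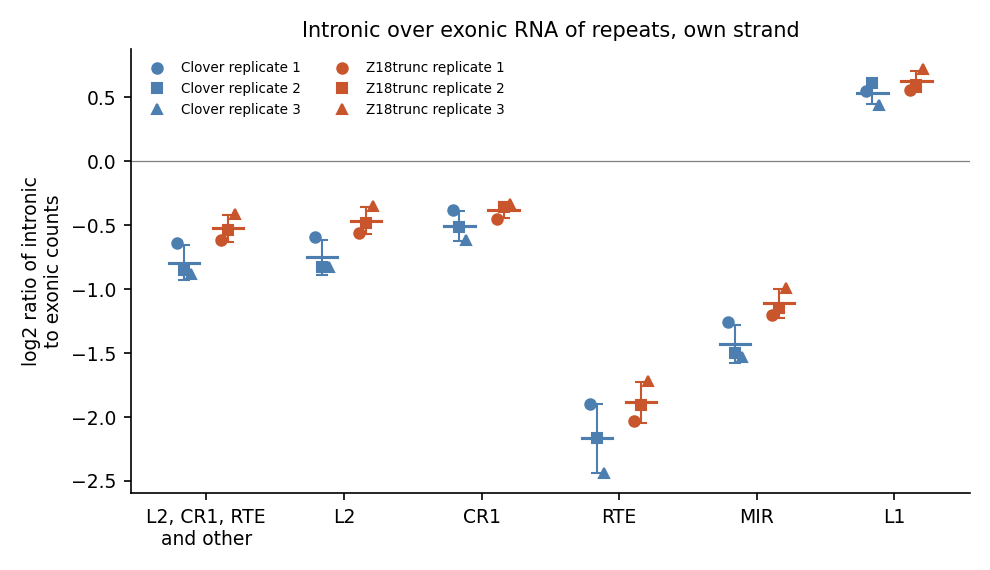
Log2 ratio of intronic to exonic own-strand counts (y axis) for all members, for L2, CR1 and RTE, and for MIR and L1. Points are libraries, bars the mean and SD of 3. Z18trunc lies above Clover for the members, L2 and MIR, and the groups overlap for CR1, RTE and L1.

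Much of the difference came from copies with few fragments. The 1092 members with at least 30 counts over all libraries held 61.3% of the counts and gave 1368, 1377 and 1380 CPM in Clover and 1430, 1499 and 1458 CPM in Z18trunc, a log2 difference of 0.09. The 32981 members under 30 counts gave 866, 757 and 735 CPM against 901, 1014 and 1101 CPM, a log2 difference of 0.35. Neither pair of groups overlapped (exact permutation p = 0.1 for each).

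Single loci were tested with edgeR over all 12453 TE loci with at least 30 counts, of which 0.201% were called at an adjusted p under 0.05. None of the 1092 tested members was called by edgeR or by DESeq2. At an unadjusted p under 0.05, edgeR put 111 members higher and 16 lower in Z18trunc, and 8.17% and 1.77% of all tested loci, respectively. With TMM scaling, which moves the median of all tested loci from 0.17 to 0.00, 54 members were higher and 51 lower, against 3.89% and 4.57% of all tested loci. With DESeq2 it was 20 and 21 (1.42% and 2.3% of all), and with library size set to the opposite-strand counts of TE loci outside exons (opposite-strand scaling) 35 and 74 (2.41% and 6.47% of all). The log2 change was above 0 for 737 members, against 64.5% of all tested loci, and their median was 0.22, or 0.05 above the median of all tested loci. With TMM scaling 586 were above 0 with a median of 0.05, and with opposite-strand scaling 502 with a median of -0.06. Under opposite-strand scaling the median of all tested loci was -0.11. By position, the median was 0.38 for the 340 intronic members, 0.31 for the 76 outside genes, 0.12 for the 620 in exons and 0.12 for the 56 antisense ones. Intronic loci of all TE classes had a median of 0.28 and exonic ones 0.12. The 147 CR1 loci had a median of 0.32, the 891 L2 loci 0.20, the 23 RTE-BovB loci 0.29 and the 29 RTE-X loci -0.04. Divergence from the consensus made little difference, with medians of 0.23 up to 28.9%, 0.20 from 29.0% to 32.2% and 0.24 above that.

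Counted by rank of FPKM, 673 of the 34073 own-strand members lay higher in all 3 Z18trunc libraries than in any Clover library and 306 lower, or 1.98% and 0.898%. Over all listed loci these shares were 1.92% and 1.01%. Among members with at least 30 counts, 136 (12.5%) were higher and 44 (4.03%) lower, against 9.83% and 3.73% of all such loci. Of the 340 intronic members in that set, 52 were higher and 9 lower, and of the 620 exonic ones 63 and 31. Shares over all TE loci were not split by position, so these counts have no baseline and do not set the members apart. By edgeR log2 change, 76.2% of tested intronic members were above 0, against 70.25% of intronic loci of all TE classes. In exons these shares were 62.3% and 61.2%.

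Of the 10 most abundant copies, 9 lay in exons and 1 in an intron. Together they held 13.8% of all member counts, and their log2 changes ran from -0.30 to 0.27 with no adjusted p under 0.404 in edgeR. At the top stood an L2b copy of 1199 bp in the 3′ UTR of TEX261 (chr2:70985937-70987135), with 97.8, 106 and 101 CPM in Clover and 95.4, 96.9 and 88.0 CPM in Z18trunc. A MamRTE1 copy overlapping coding sequence of HSPA8, the constitutive HSP70 chaperone (chr11:123060106-123060228), gave 38.5, 30.03 and 47.1 CPM against 46.0, 36.9 and 33.2 CPM. Its groups overlapped fully.

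The other abundant copies lay in well-known genes. An L2a copy in the 3′ UTR of the beta-tubulin gene TUBB gave 32.9, 35.0 and 38.3 CPM against 33.4, 33.4 and 32.1 CPM. In the 3′ UTR of CANX, which encodes the endoplasmic reticulum chaperone calnexin, an L2 copy (chr5:179729476-179729553) gave 22.4, 21.0 and 23.8 CPM against 25.6, 27.2 and 28.5 CPM, without overlap (log2 change 0.27, SE 0.11, edgeR adjusted p = 0.404). CANX itself went from 237 ± 22.1 to 303 ± 5.49 TPM (SD, n = 3, limma log2 change 0.35, adjusted p = 0.0835). An intronic copy was also in this group, an L2b in LY6E, a gene for a surface protein anchored by a glycolipid, with 27.0, 32.9 and 28.9 CPM against 28.2, 23.3 and 23.1 CPM. The remaining copies, in the 3′ UTRs of CD151, MCCC2, NUP62, TAPBP and SCNN1A, had means of 15.2 to 26.2 CPM in either group and changes from -0.30 to 0.01 on the log2 scale. Among the 10, the groups did not overlap for TEX261 and NUP62, lower in Z18trunc, and CANX, higher.

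The 5 members with the smallest p among those higher in Z18trunc were at lower levels, and none passed the adjustment. Because they were chosen by p, separated groups and large changes follow in part from that choice. The copies in ERP29, OXR1 and PRDX6 had few counts in Clover and reached the minimum of 30 counts mainly through Z18trunc. The smallest p belonged to the L2a copy in an intron of ERP29 printed above (chr12:112016302-112016486, 185 bp). It had 1, 4 and 1 counts in Clover and 12, 13 and 11 in Z18trunc, or 0.102 ± 0.093 and 0.591 ± 0.106 CPM (SD, n = 3). The groups did not overlap (log2 change 2.50, SE 0.64, edgeR adjusted p = 0.0951). ERP29, a chaperone of the endoplasmic reticulum, was at 169 ± 7.38 and 170 ± 1.002 TPM (limma log2 change 0.00, adjusted p = 0.976).

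An L2a copy in the 3′ UTR of the replication-dependent histone gene H4C8 (chr6:26280711-26281501) gave 36, 28 and 38 counts against 57, 57 and 74 (log2 change 0.87, SE 0.23, edgeR adjusted p = 0.0951). The H4C8 gene went from 6.66 ± 1.41 to 10.1 ± 2.84 TPM with overlap (limma log2 change 0.52, adjusted p = 0.186). An L2a copy in an intron of OXR1, an oxidation resistance gene (chr8:106622487-106622922), gave 1, 1 and 2 counts against 9, 8 and 11 (log2 change 2.69, SE 0.73, edgeR adjusted p = 0.129). OXR1 itself was at 42.4 ± 5.45 and 54.6 ± 7.601 TPM, without overlap (limma log2 change 0.36, adjusted p = 0.145).

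An L2-1_AMi copy in a noncoding exon of PRDX6, the peroxiredoxin that also repairs oxidized membrane lipids (chr1:173481656-173482014), gave 6, 3 and 2 counts against 20, 11 and 13 (log2 change 1.95, SE 0.53, edgeR adjusted p = 0.129). PRDX6 moved the other way, from 391 ± 8.46 to 371 ± 5.06 TPM (limma log2 change -0.08, adjusted p = 0.475). An L2c copy in the 3′ UTR of NKD1, an antagonist and target of Wnt signalling (chr16:50644230-50644352), gave 2.58, 1.25 and 2.27 CPM against 3.30, 3.90 and 3.62 CPM (log2 change 0.81, SE 0.22, edgeR adjusted p = 0.133). NKD1 went from 63.4 ± 9.27 to 80.0 ± 7.53 TPM, without overlap (limma log2 change 0.34, adjusted p = 0.153).

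The 3 members with the smallest p among those lower in Z18trunc had larger p-values, with edgeR adjusted p from 0.404 to 0.411. An L4_A_Mam copy of the RTE-X family in the 3′ UTR of OLFML2A (chr9:124814626-124814856) gave 23, 22 and 24 counts against 19, 6 and 13. The L2b copy antisense to LINC01291 printed above (chr2:74929013-74929873) gave 22, 34 and 44 counts against 22, 19 and 20, with overlap at Clover replicate 1. A MamRTE1 copy of 85 bp in a noncoding exon of NPRL3, a subunit of the GATOR1 brake on mTORC1 (chr16:84298-84382), gave 10, 10 and 14 counts against 4, 4 and 6. NPRL3 itself was at 59.1 ± 2.04 and 59.8 ± 3.23 TPM.

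**Figure D4:**
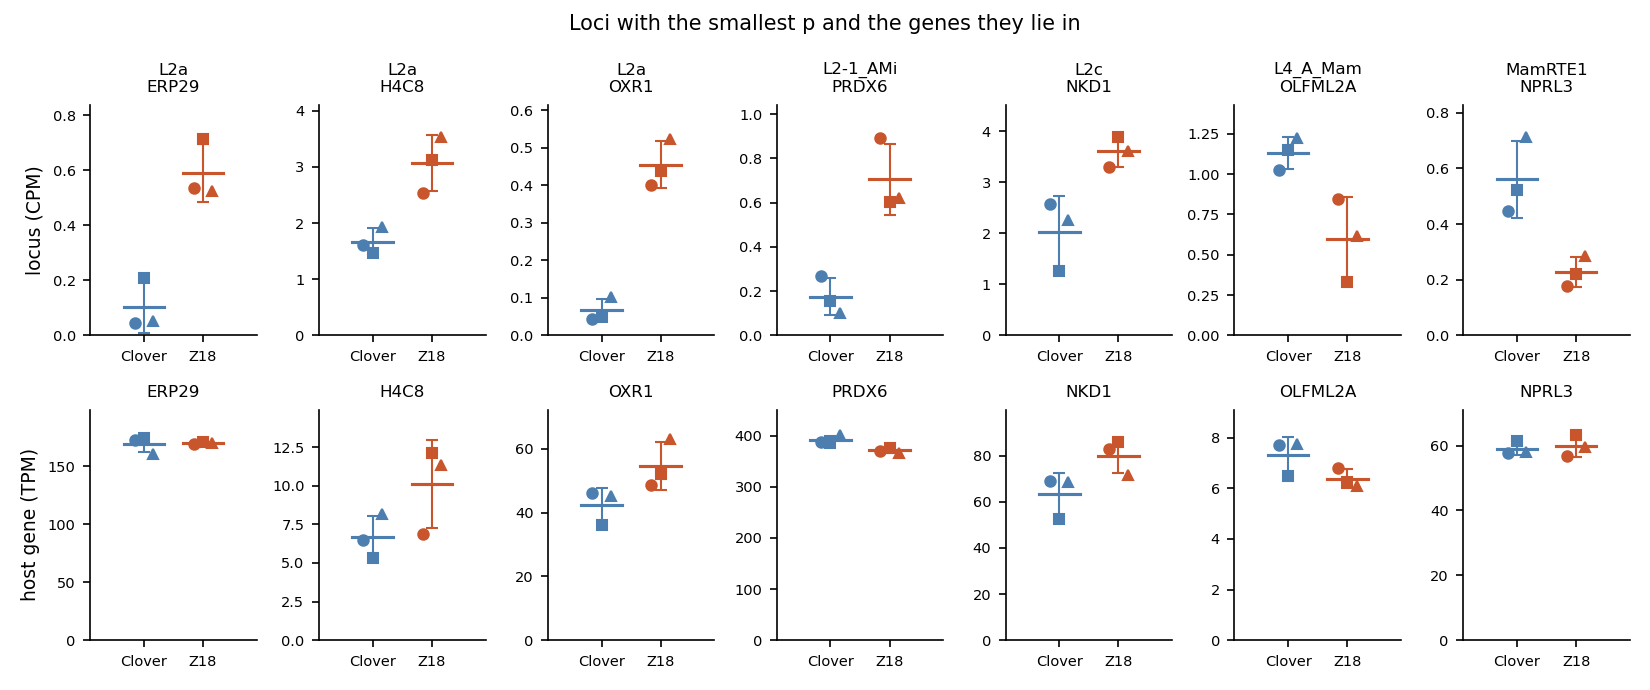
Members with the smallest p that lie in genes (top, CPM) and the genes they lie in (bottom, TPM). Points are libraries, bars the mean and SD of 3. The copies in ERP29 and PRDX6 are higher in all 3 Z18trunc libraries (Z18) while ERP29 is at 169 and 170 TPM and PRDX6 at 391 and 371 TPM. For OXR1 and NKD1, both the copy and the gene are higher in Z18trunc without overlap. The copies were chosen by p, so their separation follows in part from that choice.

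Across loci, the change of a copy and that of its gene were only loosely related. For 561 exonic members in 474 genes Spearman's rho was 0.25, and for 294 intronic members in 238 genes it was 0.18, where loci of 1 gene share its value and both measures come from the same libraries. The host genes of the intronic members had a median log2 change of 0.10, near the 0.11 of all 13300 genes tested. The copies had a median of 0.38, against 0.28 for tested intronic loci of all TE classes. Genes were fitted with limma on log2(TPM + 1) and copies with edgeR on counts, so the sizes of their changes are not on one scale.

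The gene with the most tested intronic members was CTNNB1, which encodes beta-catenin, with 5 L2a copies and 1 L2b copy on its strand. Together they gave 2.45, 1.99 and 2.45 CPM in Clover and 3.74, 4.77 and 3.95 CPM in Z18trunc. All 6 had log2 changes above 0, from 0.15 to 1.19, although copies in 1 transcript are not independent. Among tested intronic loci, 76.2% of the members and 70.25% over all TE classes were above 0. Only 2 of the 6 had an unadjusted p under 0.05 in edgeR. At that p, 53 of the 340 tested intronic members and 344 of 3600 intronic loci of all TE classes were higher. The L2b copy (chr3:41208309-41209531, 1223 bp) had 17, 5 and 10 counts against 22, 22 and 29 (log2 change 1.19, SE 0.37, edgeR adjusted p = 0.242). CTNNB1 itself differed by 0.19 (SE 0.10, limma adjusted p = 0.269). In each of BCL2L1, a gene that blocks apoptosis, and SERINC2, 4 intronic copies were tested. Their median log2 changes were 0.88 and 0.61, while the genes differed by 0.05 and 0.03. Not all genes showed this: of 3 copies in GPRC5A, 1 was above 0 and their median was -0.02. In TTC19, with 3 copies, the median was 0.33 and the gene differed by 0.36. These values were 0.35 and 0.17 in SNX19, 0.76 and 0.13 in PAX8-AS1, and 0.39 and -0.09 in UXT.

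Outside genes, the most abundant member was an L2a copy on chromosome 8 (chr8:125616209-125616640) with 48, 33 and 32.6 counts in Clover and 51, 60 and 65 in Z18trunc. It lay 132414 bp downstream of the closest gene upstream on its strand (log2 change 0.63, SE 0.23, edgeR adjusted p = 0.319). The L2 copy on chromosome 13 printed above (chr13:22792711-22793268) gave 1.92, 1.22 and 1.80 CPM against 2.06, 2.21 and 3.07 CPM (log2 change 0.57, SE 0.25, edgeR adjusted p = 0.425). Uniquely mapped counts made up 56.9% of its counts, the lowest share among the loci named. An L2b copy on chromosome 2 (chr2:9755164-9755517) gave 1.47, 1.62 and 1.53 CPM against 2.67, 2.47 and 1.52 CPM, so that Z18trunc replicate 3 fell among the controls.

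Summed by subfamily, 30 members could be tested, and edgeR called 2 of them, both higher in Z18trunc, against 1.89% of all 898 subfamilies. Without adjustment, 12 had p under 0.05 and were higher and none lower, where 24.6% of all subfamilies were higher. That split was 2 and 1 with TMM scaling (5.35% and 4.79% of all subfamilies), 1 and 1 with opposite-strand scaling (2.23% and 8.24%) and 1 and 0 with DESeq2 (2.23% and 3.79%). The median of the 30 was 0.27 on the log2 scale, compared with 0.21 for all subfamilies. CR1_Mam had the larger change of the 2, with 12.6, 10.6 and 12.3 CPM in Clover and 15.3, 17.8 and 19.8 CPM in Z18trunc (log2 change 0.57, SE 0.13, edgeR adjusted p = 0.0268). The subfamily named L2 gave 226, 211 and 212 CPM against 248, 267 and 277 CPM (log2 change 0.29, SE 0.07, edgeR adjusted p = 0.0463). Both calls were lost with TMM scaling, where the log2 changes were 0.36 and 0.08, with DESeq2 (0.36 and 0.08) and with opposite-strand scaling (0.28 and 0.0027). They were also lost without any 1 of the 3 Clover libraries, with changes of 0.50 to 0.62 for CR1_Mam and 0.27 to 0.32 for L2. The call of L2 was lost besides without Z18trunc replicate 2 (0.28), with a replicate block (0.29, edgeR adjusted p = 0.131) and at a minimum of 100 counts (0.29, edgeR adjusted p = 0.0504). Relative to the median of all subfamilies, CR1_Mam was 0.36 higher on the log2 scale and L2 0.07 higher.

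The abundant subfamilies were close to each other. L2a gave 598 ± 20.6 and 696 ± 38.4 CPM (SD, n = 3, log2 change 0.22, edgeR adjusted p = 0.0648) and L2c gave 528 ± 15.1 and 604 ± 38.6 CPM (log2 change 0.19, adjusted p = 0.0848). L2b was nearer to no change, with 473 ± 10.99 and 501 ± 15.6 CPM and overlapping libraries (log2 change 0.08, edgeR adjusted p = 0.396). In CR1, L3 gave a log2 change of 0.21 and L3b 0.31, both without overlap and neither past the adjustment. Of the RTE subfamilies, MamRTE1 (0.16), L4_A_Mam (0.12) and L4_C_Mam (0.07) all overlapped between the groups. With TMM scaling or DESeq2 the changes of L2b, L2c, MamRTE1, L4_A_Mam and L4_C_Mam fell below 0, and with DESeq2 also that of L3. MamRTE1 had 90.4% of its counts in exons, the largest share among the 10 most abundant subfamilies. In these 10, intronic sums gave larger log2 differences than exonic sums except in CR1_Mam and L4_C_Mam.

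**Figure D5:**
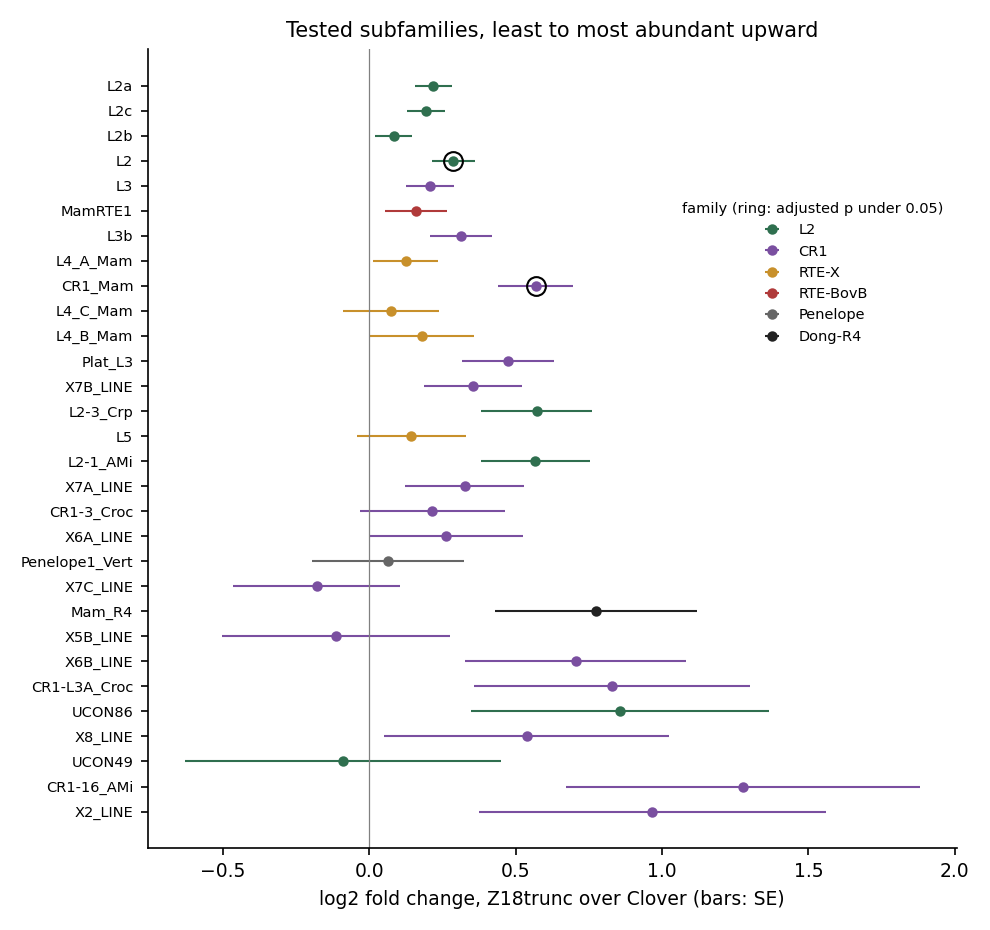
Log2 fold change with its SE (x axis) for the 30 subfamilies tested, ordered by abundance (y axis, most abundant on top) and coloured by family. Rings mark CR1_Mam and L2, the 2 subfamilies called by edgeR.

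A large part of the change of CR1_Mam came from 4 copies, which were looked at after the call was seen. Of its 140 own-strand copies, 85 had a higher mean in Z18trunc and 55 a lower one. A copy overlapping coding sequence of SRSF10, an SR family splicing factor (chr1:23967552-23967889), gave 2.85, 2.04 and 3.82 CPM in Clover and 3.79, 4.72 and 5.38 CPM in Z18trunc. Alone it made up 29.96% of the difference. The 3 copies in the 3′ UTR of BLTP3A, a lipid transfer gene, made up another 34.7%, and the most abundant of them (chr6:34874715-34874995) gave 1.69, 1.57 and 1.63 CPM against 2.09, 2.74 and 2.67 CPM. Without these 4 copies, the remaining 136 gave 6.14, 5.80 and 5.86 CPM against 6.95, 8.45 and 8.52 CPM, still without overlap (log2 difference 0.42, exact permutation p = 0.1). The 4 copies held 0.336% of all member counts and the 136 held 0.300%. The most abundant copy outside exons, in an intron of ANKRD1 and printed above, gave 0.890, 0.836 and 0.917 CPM against 1.16, 1.15 and 1.14 CPM (log2 change 0.38, SE 0.31, edgeR adjusted p = 0.751). ANKRD1 itself went from 218 ± 8.28 to 289 ± 44.1 TPM (SD, n = 3), without overlap (limma log2 change 0.40, adjusted p = 0.0958).

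The L2 subfamily has far more copies than CR1_Mam, and its most abundant copy made up a smaller part of the difference. Of 3946 copies, 2295 had a higher mean in Z18trunc and 1651 a lower one. The CANX copy, its most abundant, made up 9.84% of the difference. The next in abundance, in the 3′ UTRs of DVL3 and TBL2, were slightly lower in Z18trunc with overlapping libraries. A copy in the 3′ UTR of the transcription factor gene SP1 (chr12:53415997-53416140) gave 3.61, 3.71 and 3.01 CPM against 5.88, 4.66 and 5.001 CPM (log2 change 0.59, SE 0.18, edgeR adjusted p = 0.21).

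Of the alternatives run, leaving out Clover replicate 1 was the only one that brought a single member past the adjustment, an L3b copy in GABPB1-IT1, a noncoding gene inside GABPB1 (chr15:50350634-50350973). It had 17, 1 and 3 counts in Clover and 25, 10 and 18 in Z18trunc. The log2 change of the copy was 1.32 (SE 0.51, edgeR adjusted p = 0.384) with all libraries and 2.97 (SE 0.67, edgeR adjusted p = 0.0346) without Clover replicate 1. The copy lay in a noncoding exon. GABPB1-IT1 itself was at 4.45, 4.48 and 4.29 TPM in Clover and 6.65, 6.91 and 7.15 TPM in Z18trunc. Its groups did not overlap (limma log2 change 0.55, adjusted p = 0.0773). Whether the copy changed apart from its gene was not tested.

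RNA surveillance and silencing genes were read from a list of 18 that covers NEXT and PAXT adaptors, cap-binding proteins, exosome subunits and HUSH components. None passed the limma adjustment. At an unadjusted p under 0.05, 9 were higher, against 25.6% of all genes tested, and all 18 had a log2 change above 0, against 68.0%, with a median of 0.29 against 0.11 for all genes. The NEXT subunit RBM7 went from 10.1 ± 0.544 to 13.2 ± 0.465 TPM (SD, n = 3, limma adjusted p = 0.0773), and ZCCHC8, its scaffold, from 6.21 ± 0.668 to 8.66 ± 0.635 TPM (limma adjusted p = 0.0783). Both were without overlap. After quantile normalization 17 were above 0, against 48.9% of all genes, and 4 were higher at an unadjusted p under 0.05, against 12.8%, with a median of 0.16 against -0.01 for all genes. Their part in the levels of L2, CR1 and RTE RNA was not tested.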

How the data were processed

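Polyadenylated RNA of 3 Clover and 3 Z18trunc libraries of SW480 cells was read as stranded pairs. The authors trimmed reads (cutadapt 4.6, per the submitters' processing notes) and ran SQuIRE on hg38. The deposited tables list, per TE locus and strand, uniquely mapped counts, which are not normalized, and an estimated count in which multiply mapped fragments were shared by expectation-maximization. The FPKM values deposited by the authors divide the estimated count by the stretch covered in that library, and recomputing them matched 100% of entries within 0.01. A deposited score per locus was not used. The authors' gene tables give TPM, summed here over 28307 symbols, and FPKM, which was not used.

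Estimated counts were rounded and tested with edgeR 4.0.16 (quasi-likelihood) in R 4.3.3. Aligned fragments served as library size. A locus, or the sum of a subfamily, entered with 30 counts or more over the 6 libraries. The Benjamini-Hochberg adjustment ran over everything tested in DNA, LINE, LTR and SINE (calls at 0.05). For genes, limma 3.58.1 was run on log2(TPM + 1) of the 13300 with mean TPM of 1 or above, where fold changes of low genes are understated. Sums and ratios per library were tested by exact permutation, two-sided (scipy 1.17.1). Alternatives included TMM, DESeq2 1.42.0, other filters, a replicate block and leaving out each library. The intron to exon ratio was added after the data were seen.

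Each locus was placed with GENCODE 44 exons and gene spans (bedtools 2.31.1) as exonic or intronic on the transcribed strand, antisense to a gene or outside genes, and exons as coding sequence, 3′ UTR, 5′ UTR or noncoding in that order. TE starts were converted to 1-based positions, and sequences were read from hg38.

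Named loci were the 10 most abundant, any called, the 5 with the smallest p among those higher and the 3 among those lower, and the 3 most abundant outside genes. Named subfamilies were the 10 most abundant and any called. Copies in CTNNB1, BCL2L1, SERINC2, GPRC5A, TTC19, SNX19, PAX8-AS1, UXT, SRSF10, BLTP3A, TSC1, ANKRD1, DVL3, TBL2, SP1 and GABPB1-IT1 were named after their values were seen. The members and lists were chosen with earlier results of these data known. The fits were tested on simulated data. Replicates are libraries that the titles number, made from lines transduced in triplicate. Libraries of 1 group differed by more than counting noise (chi-square per degree of freedom 1.57 to 1.83).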

Additional observations from a re-analysis of the deposited data

How the results depend on the processing

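When each library was left out, the log2 difference ran from 0.16 to 0.23 for all members, 0.16 to 0.23 for L2, 0.19 to 0.30 for CR1, 0.058 to 0.095 for exons and 0.29 to 0.41 for introns, and uniquely mapped counts kept these directions too. With TE counts as library size the log2 differences were 0.012 for all members, 0.0069 for L2, 0.073 for CR1 and -0.023 for RTE, each with overlap. For exonic members it was -0.10 without overlap. The log2 ratio to L1, -0.06 with all libraries, was 0.049 without exonic loci and ran from -0.11 to 0.023 when each library was left out, above 0 without Z18trunc replicate 3. The ratio of own to opposite strand was 0.015 without the 20 most abundant loci, 0.04997 without exonic loci and -0.025 to 0.0078 over the left-out libraries, above 0 without Clover replicate 3. Members whose groups did not overlap numbered 979 in all, 180 with at least 30 counts and 1961 to 2431 when 1 library was left out, where fewer libraries make separation easier. Shares over all TE loci are given above for the full set of libraries only, so the left-out counts have no baseline.

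Called members numbered 0 to 1 over the left-out libraries (1 without Clover replicate 1) and 0 under every other alternative. Called subfamilies numbered 0 with TMM scaling, opposite-strand scaling or DESeq2 (0.334%, 0.111% and 0.223% of all subfamilies called). They numbered 1 at a minimum of 100 counts (0.799%), 6 with uniquely mapped counts (6.65%) and 7 on the opposite strand (12.6%). Over the left-out libraries they numbered 0 to 5, with 0 without any 1 Clover library (0.334% to 0.668%) and 5 without Z18trunc replicate 1 (9.02%). With a replicate block 1 was called, CR1_Mam (log2 change 0.57, edgeR adjusted p = 0.0426), against 0.78% of all subfamilies. Same-numbered libraries deviated together with correlations of 0.00051, -0.019 and -0.035, so the numbers gave no sign of pairing, and the block was not used elsewhere.

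Scaling turned some changes. With TMM scaling, opposite-strand scaling and DESeq2 in that order, the log2 change was -0.010, -0.093 and -0.015 for L2c, -0.12, -0.20 and -0.12 for L2b, -0.042, -0.12 and -0.045 for MamRTE1, -0.079, -0.16 and -0.084 for L4_A_Mam and -0.13, -0.19 and -0.13 for L4_C_Mam. It was -0.16, -0.27 and -0.16 for the copy in HSPA8 and -0.16, -0.26 and -0.16 for that in SCNN1A. L3 gave -0.078 with opposite-strand scaling and -0.0031 with DESeq2, L2a gave -0.067 and the CANX copy -0.014 with opposite-strand scaling, and the MCCC2 copy gave 0.033 with uniquely mapped counts. With each library left out, L4_C_Mam ran from -0.072 to 0.33, the HSPA8 copy from -0.14 to 0.18, the MCCC2 copy from -0.093 to 0.047 and the SCNN1A copy from -0.16 to 0.12. Depth limits single copies: the log2 change of the ERP29 copy was 2.13 without Clover replicate 1 and 3.47 without Clover replicate 2, against 2.50 with all libraries.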

Other observations

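A few L2c copies overlap microRNA genes. On the own strand 4 listed L2c copies overlapped annotated hairpins of the same strand: MIR4750 in TBC1D17, MIR1249 in KIAA0930, MIR374B with MIR421 in FTX, and MIR374A with MIR545 in FTX. FTX is a noncoding gene of the X inactivation centre that hosts microRNAs in its introns. The copy at MIR4750 (chr19:49888092-49888198) had 5, 10 and 3 counts in Clover and 2, 6 and 0 in Z18trunc, with overlapping groups. The other 3 had at most 2 counts in any library. None reached 30 counts, and polyadenylated RNA of this kind does not measure mature microRNAs.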
